A study of Rattus norvegicus with 9 samples.

Results

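The comparison set diabetic rats that received black bean extract (BB) against healthy rats (HE), and used 6 of the 9 RNA libraries of the series. It asked which genes still differed from the healthy state in the treated diabetic rats. All rats were male, wild-type Wistar animals sampled at day 31. According to the methods of the study, BB rats were fed a high fat diet, were injected once with streptozotocin (25 mg/kg, a toxin of insulin-producing beta cells) and were given the extract at 260 mg/kg/day, whereas HE rats were fed the standard diet, were injected with citrate buffer and had no treatment. Diabetic rats without extract (DB, 3 libraries) had the same diet and toxin as BB rats, shared the estimate of the spread and are shown beside the called genes. By the same methods, BB rats received the extract and DB rats received water by oral gavage, whereas no gavage is described for HE rats. Diet, toxin, extract and gavage thus all differ between BB and HE, so their parts in a difference cannot be told apart in this comparison. The libraries were chosen by their labels: BB replicates 1, 4 and 8 and HE replicates 2, 3 and 4. Genes were tested when their mean value reached 1 in either group, which left 32146 of 32883 listed genes with all libraries and 32226 genes without BB replicate 8. At that edge Mir30c1, a miRNA gene, was just inside with an HE mean of 1.01 and RF00619.20 was just outside with an HE mean of 0.990.

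White adipose tissue stores triglycerides and releases them as fatty acids. Insulin drives glucose uptake through the transporter GLUT4, promotes the synthesis of fatty acids and restrains their release, and these controls weaken in diabetes. The tissue also holds vessels, connective tissue and immune cells such as macrophages, T cells and natural killer cells, so a change in its RNA can come from any of them. In a tissue sample, fewer cells of a type and less RNA per cell cannot be told apart.

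BB replicate 8 stood apart from every other library. It held 12267084 reads, against 2771967 to 3542749 in the 8 others, yet 47.4% of the listed genes had no read there, against 1.92% to 2.72% in the others. Its 10 largest genes took 76.5% of its reads, against 10.2% to 19.2% elsewhere, and its log2 values correlated with those of the other libraries at r = 0.577 to 0.594 across genes, whereas the others correlated among themselves at 0.961 to 0.969 (genes are not independent replicates). A value is the number of reads divided by 1 factor per library, so that 1 read was worth 14.6 in BB replicate 8 and 0.672 to 0.913 in the others. Every result is therefore given with and without this library. Without it, 2 BB libraries stand against 3 HE libraries.

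**Figure D1:**
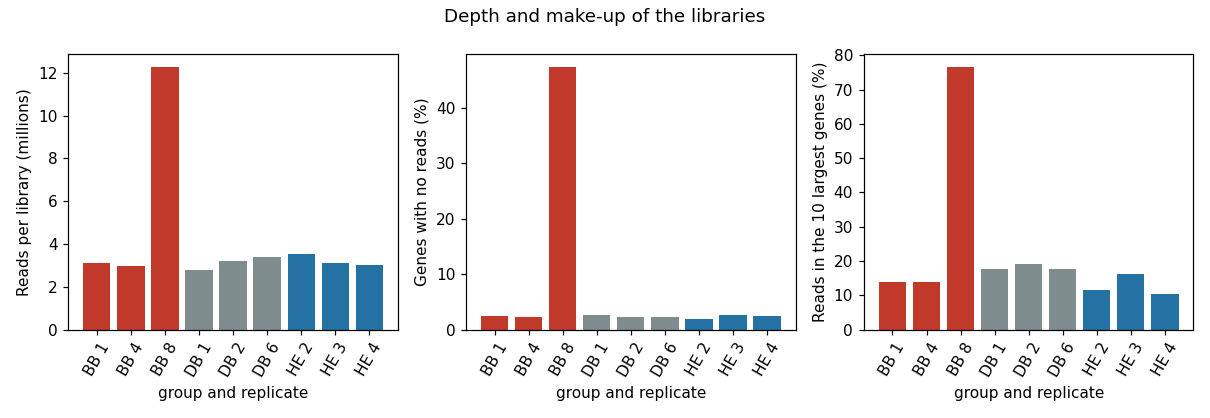
Reads per library, percentage of listed genes with no read and percentage of reads in the 10 largest genes, one bar per library, for BB, DB and HE. BB replicate 8 held 12267084 reads, left 47.4% of the genes without a read and had 76.5% of its reads in 10 genes, above every other library in all 3 panels.

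The labelled tissue was checked with marker lists. Leptin (Lep), an adipose hormone, had values of 212, 167 and 58.5 in BB replicates 1, 4 and 8, against 183, 212 and 218 in HE replicates 2, 3 and 4. Adiponectin (Adipoq) had values of 58.4, 69.3 and 0 in BB, against 58.4, 67.6 and 59.3 in HE. The 25 adipocyte markers in the table summed to 2010, 1879 and 66891 in BB and to 1872 to 2238 in HE, with 10 of the 25 at 0 in BB replicate 8 and none at 0 elsewhere. Markers of tissues other than fat were detected as widely: no hepatocyte, skeletal muscle, kidney and adrenal, or neuron and testis marker was at 0 outside BB replicate 8, and the 28 hepatocyte markers summed to 3555, 3536 and 14809 in BB and to 3347 to 4133 in HE. These lists therefore did not set fat apart from other tissues in any library. Outside BB replicate 8, the ranges of both summed lists in BB lay within those in HE.

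With all libraries no gene passed an adjusted p of 0.05 in limma, the test used throughout unless another is named (0% of 32146 genes). The smallest adjusted p was 0.524, and 504 genes (1.57%) had an unadjusted p under 0.05. The edgeR quasi-likelihood test on recovered reads also called 0 genes, with 2180 (8.22%) at an unadjusted p under 0.05, and DESeq2 called 15, all of them lower in BB. The median log2 fold change over all genes was −0.51, and 28.7% of genes were above 0. Log2 fold changes are differences of log2(value + 1), BB minus HE, and their median standard error was 0.70.

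Without BB replicate 8, 59 of 32226 genes (0.183%) passed the adjusted threshold. Of these, 47 (0.146%) were lower and 12 (0.0372%) were higher in BB than in HE. The median log2 fold change over all genes was −0.00082 and the median standard error was 0.23. An unadjusted p under 0.05 was reached by 1305 genes lower in BB (4.05%) and by 912 genes higher in BB (2.83%). The 2 directions together made up 2217 genes (6.88%). The edgeR test called 67 genes (0.246%, of which 51 lower and 16 higher), among them each of the 59. The lower genes had log2 fold changes of −3.33 to −0.60 with a median of −1.08, and the higher genes had 0.66 to 1.91 with a median of 1.02. Protein coding genes made up 41 of the 59 (of 18334 tested), and 0 of 345 miRNA genes passed, with 14 at an unadjusted p under 0.05. The count depended on single libraries: without BB replicate 4 as well it was 31, without HE replicate 4 it was 26, and without BB replicate 1 it was 53, and each of these shared 25 genes with the 59. A set of 16 genes, all lower in BB, was called whichever further library was left out, among them Nradd, Slc5a6, Klrk1, Hcn3, Sparcl1, Tgfb1i1, Psmd9, Ndc1, Lrrc23 and Itga4. Each of the other 43 genes lost its call without at least 1 library.

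In each of the 59 genes, BB replicates 1 and 4 did not overlap the HE libraries, which was also true of 22.2% of all tested genes (11.9% lower and 10.3% higher). When BB replicate 8 was included, 41 of the 47 lower genes and 1 of the 12 higher genes, Slc18a3, stayed free of overlap. Over all genes, 3834 lower and 3323 higher were free of overlap without BB replicate 8, and 2859 (8.89%) and 910 (2.83%) with it. The called genes were all free of overlap before it was added, so the shares of all genes are not their base. BB replicate 8 read 0 or 1 read for 31 of the 47 lower genes and for 9 of the 12 higher genes, and it lay below every HE library for 11 of the 12 higher genes. Its low value therefore accompanied a call in either direction, and in the genes below it is not counted as a further replicate that agrees. It lay above every HE library for 4 lower genes, namely Nradd, Prrt4, Lmnb2 and Rxrb, of which the last 3 were picked out after their values were seen. The fits with and without BB replicate 8 share every other library, so agreement of their signs is not a separate check. With all libraries 28.7% of all genes were above 0, against 49.9% without BB replicate 8. The sign of the log2 fold change was the same with all libraries for 44 of the 47 lower genes and for 5 of the 12 higher genes. These 5 were Slc18a3, Rplp1, AABR07053837.1, AABR07026997.1 and AABR07031158.1.

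**Figure D2:**
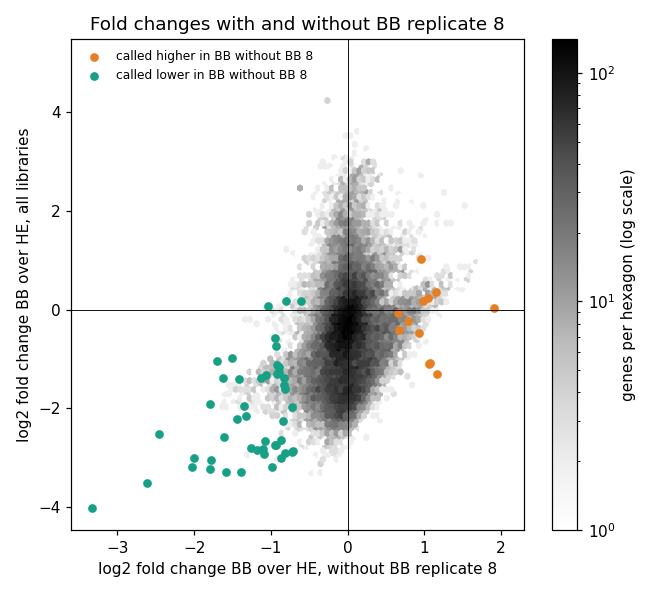
Log2 fold change BB over HE without BB replicate 8 (horizontal) and with all libraries (vertical), with the number of genes per hexagon in grey on a log scale and the 59 called genes in colour. Most lower genes (green) sit in the lower left, 44 of 47 below 0 on both axes, whereas 5 of the 12 higher genes (orange) are above 0 with all libraries. The axes share every library but BB replicate 8, and 28.7% of all genes are above 0 with all libraries.

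The called genes are grouped here by what they are known to do. These groups were formed after the values were seen and none was tested as a theme. Carriers, channels and receptors of the cell surface were among the genes with the smallest p-values. Slc5a6 encodes the sodium-dependent carrier of biotin and pantothenate, vitamins that serve the carboxylases and coenzyme A of fatty acid synthesis. Its values were 85.7, 94.2 and 14.6 in BB replicates 1, 4 and 8, against 220.3, 199 and 263 in HE replicates 2, 3 and 4, with no overlap. The value of BB replicate 8 is 1 read. The log2 fold change was −1.32 (SE 0.14, limma adjusted p = 0.00018) without BB replicate 8 and −2.17 with all libraries. Hcn3 encodes a channel subunit opened by hyperpolarization, which carries pacemaker currents in excitable cells. It had 357, 309 and 43.9 in BB, against 1019, 906 and 1154 in HE, with no overlap (−1.62, SE 0.18, limma adjusted p = 0.00025, and −2.58 with all libraries). Klrk1 encodes NKG2D, an activating receptor of natural killer and some T cells. It had 49.8, 53.1 and 0 in BB, against 128, 126 and 158 in HE, again with no overlap (−1.39, SE 0.18, limma adjusted p = 0.00095, and −3.29 with all libraries).

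Nradd, a membrane protein with a death domain that resembles the neurotrophin receptor p75, was the one gene of this set in which BB replicate 8 went the other way. Its values were 31.9, 35.4 and 132 in BB, against 119.6, 91.3 and 126 in HE. Both other BB libraries were well under the HE range, and BB replicate 8 was above it. The log2 fold change was −1.70 (SE 0.21, limma adjusted p = 0.00047) without that library and −1.05 with all libraries. The promoters of Nradd and Slc5a6 are shown because, without BB replicate 8, these genes were called whichever further library was left out. Each runs from 250 bases before to 50 bases after the start of the gene in RefSeq (rat build GRCr8), at chr8:119481165-119481464 on the minus strand for Nradd and at chr6:31040150-31040449 on the plus strand for Slc5a6. Capitals mark, on either strand, the TATA box (TATAAA), the GC box (GGGCGG), the CCAAT box and the E-box (CACGTG).
Nradd: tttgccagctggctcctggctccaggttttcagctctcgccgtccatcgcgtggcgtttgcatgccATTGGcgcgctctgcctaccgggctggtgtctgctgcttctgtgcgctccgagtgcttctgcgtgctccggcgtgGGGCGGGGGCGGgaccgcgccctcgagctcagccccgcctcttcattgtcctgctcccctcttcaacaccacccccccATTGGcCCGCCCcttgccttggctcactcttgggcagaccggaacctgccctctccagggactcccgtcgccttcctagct
Slc5a6: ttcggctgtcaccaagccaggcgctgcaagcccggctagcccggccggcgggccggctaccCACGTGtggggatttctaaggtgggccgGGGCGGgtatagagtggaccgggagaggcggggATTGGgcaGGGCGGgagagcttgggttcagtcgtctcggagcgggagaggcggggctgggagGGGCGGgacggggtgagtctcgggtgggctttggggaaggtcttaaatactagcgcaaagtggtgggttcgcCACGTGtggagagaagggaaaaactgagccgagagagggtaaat
Nradd held 3 GGGCGG and 2 CCAAT matches, and Slc5a6 held 3 GGGCGG, 1 CCAAT and 2 CACGTG matches. Of the 29 lower genes with a promoter in the table, 17 (58.6%) held GGGCGG, 13 (44.8%) CCAAT, 4 (13.8%) CACGTG and 1 (3.45%) TATAAA. The shares over all 27457 promoters of this length were 34.9%, 37.7%, 6.65% and 14.3%. Those 27457 were not limited to genes tested here or matched for gene type, so they are an unlike base, and no difference in shares was tested. A match describes the letters of the window and is not evidence of a bound site.

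**Figure D3:**
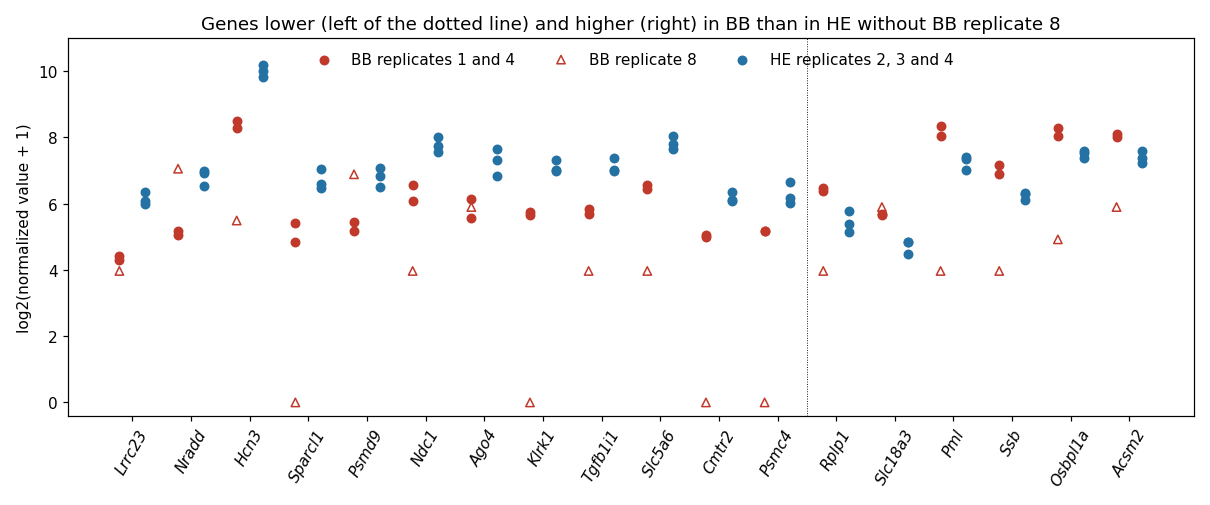
Log2(normalized value + 1) in each library for the 12 lower genes (left of the dotted line) and the 6 higher genes (right) with a gene symbol and the largest log2 fold changes. In each pair BB is left (filled circles for replicates 1 and 4, open triangle for replicate 8) and HE is right. BB replicates 1 and 4 are clear of HE in all 18, and the triangle of Nradd lies above its HE circles.

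Psmd9 and Psmc4 fell, and both belong to the proteasome, which degrades proteins tagged with ubiquitin. They were 2 of 48 tested genes with a proteasome symbol (Psma to Psmg), counted after the values were seen. None of the 48 rose, 25 were above 0 and their median log2 fold change was 0.02 (15 above 0 and −0.29 with all libraries). Psmd9, a chaperone that helps assemble the proteasome, had 35.04, 42.7 and 117 in BB, against 113, 90.5 and 135 in HE. BB replicates 1 and 4 were below the HE range and BB replicate 8 was inside it (−1.50, SE 0.18, limma adjusted p = 0.00047, and −0.98 with all libraries). Psmc4, an ATPase of the proteasome base, had 35.04, 35.4 and 0 in BB, against 71.2, 63.4 and 99.1 in HE, with no overlap (−1.10, SE 0.20, limma adjusted p = 0.022, and −2.82 with all libraries). Fbxw5, the substrate receptor of a ubiquitin ligase, fell by 0.83 on the log2 scale (limma adjusted p = 0.036, and −1.39 with all libraries), and Asb16, a member of the family of SOCS box proteins, fell by 0.90 (limma adjusted p = 0.018, and −1.16 with all libraries). The promoters of Psmd9 and Psmc4 are shown because both genes were called, at chr12:39018215-39018514 (Psmd9) and chr1:92485011-92485310 (Psmc4), both on the minus strand, with the same motifs in capitals.
Psmd9: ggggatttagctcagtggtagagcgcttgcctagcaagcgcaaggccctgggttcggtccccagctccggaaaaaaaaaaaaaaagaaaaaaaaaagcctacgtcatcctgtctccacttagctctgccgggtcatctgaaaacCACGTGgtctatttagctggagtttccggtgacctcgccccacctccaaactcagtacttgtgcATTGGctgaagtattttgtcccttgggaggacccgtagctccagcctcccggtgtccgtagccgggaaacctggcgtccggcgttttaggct
Psmc4: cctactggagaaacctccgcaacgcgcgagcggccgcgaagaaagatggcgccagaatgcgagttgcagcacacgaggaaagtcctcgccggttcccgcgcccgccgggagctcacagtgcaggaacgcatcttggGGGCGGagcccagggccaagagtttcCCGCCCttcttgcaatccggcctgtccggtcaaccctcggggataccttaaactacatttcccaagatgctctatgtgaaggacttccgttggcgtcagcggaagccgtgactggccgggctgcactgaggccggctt
Psmd9 held 1 CCAAT and 1 CACGTG match, whereas Psmc4 held 2 GGGCGG matches, so this pair had none of the motifs in common.

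Ndc1, Ago4 and Cmtr2 are known for roles in the nucleus or on RNA, as are the higher genes Pml and Ssb. Ndc1 anchors the nuclear pore in the nuclear envelope and had 66.2, 94.2 and 14.6 in BB, against 214, 186 and 254 in HE. BB replicate 8 was at 1 read, and no BB library overlapped HE (−1.44, SE 0.16, limma adjusted p = 0.00025, and −2.23 with all libraries). Ago4 is an Argonaute protein that carries small RNAs, and it had 70.1, 45.9 and 58.5 in BB, against 159, 113 and 201 in HE. Here BB replicate 8 lay between the other BB libraries, and the estimates with and without it were close (−1.42, SE 0.20, limma adjusted p = 0.0019, and −1.41 with all libraries). The value of BB replicate 8 rests on few reads, since 1 read there is worth 14.6. Cmtr2, which methylates the second nucleotide of the mRNA cap, had 31.9, 30.6 and 0 in BB, against 67.2, 68.5 and 81.2 in HE, with no overlap (−1.18, SE 0.19, limma adjusted p = 0.0059, and −2.85 with all libraries). Rai1, a chromatin-bound regulator of transcription, fell by 0.81 on the log2 scale (limma adjusted p = 0.0068, and −1.61 with all libraries), and Zbtb49, a zinc finger protein, fell by 1.09 (limma adjusted p = 0.0041, and −2.93 with all libraries). Mrnip, a partner of the DNA break sensor MRN, fell by 0.73 (limma adjusted p = 0.020, and −1.98 with all libraries), and Cdc25b, a phosphatase that activates cyclin-dependent kinases, fell by 0.71 (limma adjusted p = 0.024, and −2.88 with all libraries). Lmnb2 (lamin B2) and Rxrb (a retinoid X receptor) fell by 0.80 and 0.60 without BB replicate 8 (limma adjusted p = 0.043 and 0.047), but with it their log2 fold changes were 0.18 and 0.17.

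Lrrc23, a leucine-rich repeat protein known from the radial spokes of sperm tails, had the largest fall among genes with a symbol. It had 20.2, 18.5 and 14.6 in BB, against 67.2, 62.6 and 81.2 in HE. BB replicates 1 and 4 were low, BB replicate 8 was at 1 read, and the estimate hardly moved with it (−1.80, SE 0.25, limma adjusted p = 0.0016, and −1.93 with all libraries). LOC100911585, called as well, had the same values as Lrrc23 within 1 read in BB replicates 1 and 4 and all HE libraries, so that reads of the 2 names cannot be told apart and they count as 1 signal. Both names are in the set of 16 genes called whichever further library was left out. AABR07017825.1 and AABR07017745.4, both called lower (−0.94 each, and −2.74 and −2.75 with all libraries), also followed each other (r = 0.999 over the libraries other than BB replicate 8). Kcnu1, a potassium channel of sperm, fell by 0.81 on the log2 scale (limma adjusted p = 0.039, and −2.91 with all libraries).

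Sparcl1, Tgfb1i1 and Itga4 act in the matrix and in cell adhesion. Sparcl1, a matricellular glycoprotein of the SPARC family, had 41.3, 27.4 and 0 in BB, against 96.1, 87.9 and 130.3 in HE (−1.59, SE 0.21, limma adjusted p = 0.00095, and −3.29 with all libraries). Tgfb1i1 (Hic-5), a focal adhesion protein that also coactivates nuclear receptors, had 56.1, 50.7 and 14.6 in BB, against 128, 125 and 164 in HE (−1.36, SE 0.16, limma adjusted p = 0.00034, and −1.95 with all libraries). Itga4, the alpha 4 integrin of leukocytes, had 75.5, 82.9 and 43.9 in BB, against 162, 146 and 194 in HE (−1.06, SE 0.15, limma adjusted p = 0.0021, and −1.34 with all libraries). In all 3 genes each BB library was below each HE library, but BB replicate 8 had no read of Sparcl1 and 1 read of Tgfb1i1.

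Scd, Uqcrh and Gcdh act in lipid desaturation, respiration and lysine breakdown. Scd, the desaturase that makes oleate from stearate, had 71.6, 60.4 and 14.6 in BB, against 98.1, 112 and 147 in HE. The groups did not overlap, but the call was close to the threshold (−0.83, SE 0.17, limma adjusted p = 0.047, and −1.53 with all libraries). It was lost when at least 1 further library was left out, and held in 4 of 11 other settings. Uqcrh, the hinge protein of respiratory complex III, had 112, 84.6 and 0 in BB, against 183, 189 and 212 in HE (−0.99, SE 0.15, limma adjusted p = 0.0041, and −3.19 with all libraries). Gcdh, a mitochondrial enzyme of lysine breakdown, had 38.2, 41.9 and 0 in BB, against 77.2, 62.6 and 82.7 in HE (−0.87, limma adjusted p = 0.039, and −2.65 with all libraries). BB replicate 8 held no read of Uqcrh or Gcdh, and the other BB libraries were also below HE. Mief2, which recruits the fission protein Drp1 to mitochondria, fell by 0.92 on the log2 scale (limma adjusted p = 0.021, and −1.31 with all libraries), and Fam173b, a methyltransferase of the mitochondrial ATP synthase, fell by 0.94 (limma adjusted p = 0.033, and −0.75 with all libraries).

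Il5ra, Lifr and Gpr35 are receptors of cytokines and metabolites. Il5ra, the receptor chain for interleukin 5, had 293, 306 and 14.6 in BB, against 530.0, 484 and 610 in HE (−0.85, SE 0.13, limma adjusted p = 0.0030, and −2.27 with all libraries). Lifr, the receptor of leukaemia inhibitory factor, had 94.2, 85.4 and 0 in BB, against 138, 139 and 173 in HE (−0.73, limma adjusted p = 0.047, and −2.90 with all libraries). Gpr35, a G protein-coupled receptor of gut and immune cells, had 28.0, 24.2 and 0 in BB, against 55.1, 44.8 and 71.8 in HE (−1.08, limma adjusted p = 0.043, and −2.67 with all libraries). None of these groups overlapped. Rpl4, a protein of the large ribosomal subunit, fell by 0.89 on the log2 scale (limma adjusted p = 0.026, and −1.26 with all libraries). Ccdc158 fell by 0.95 (limma adjusted p = 0.026, and −0.57 with all libraries), and Prrt4 fell by 1.04 (limma adjusted p = 0.027) but had 0.07 with all libraries. The lower genes in the text that are not among the 12 largest changes were, apart from Itga4 and Scd, picked out after their values were seen.

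Only 6 genes with a symbol were higher in BB without replicate 8. Pml, which organizes nuclear bodies, had 322, 264 and 14.6 in BB, against 169, 129 and 162 in HE (0.93, SE 0.16, limma adjusted p = 0.011). Ssb, the La protein that binds the ends of newly made small RNAs, had 142, 118 and 14.6 in BB, against 79.3, 68.5 and 76.5 in HE (0.79, SE 0.14, limma adjusted p = 0.016). In both genes BB replicates 1 and 4 were above the HE range and BB replicate 8, at 1 read, was below it. With all libraries their log2 fold changes were −0.47 and −0.23. The promoter of Pml, shown as one of the genes that rose, lies at chr8:67554839-67555138 on the minus strand and held 3 GGGCGG and 1 CCAAT match.
Pml: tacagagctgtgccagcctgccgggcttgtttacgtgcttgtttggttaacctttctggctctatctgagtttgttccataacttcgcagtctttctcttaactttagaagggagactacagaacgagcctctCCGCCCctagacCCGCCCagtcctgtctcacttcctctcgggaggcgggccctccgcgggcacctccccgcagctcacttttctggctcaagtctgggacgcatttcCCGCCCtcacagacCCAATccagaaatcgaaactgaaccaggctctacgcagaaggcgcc
Of the 6 higher genes with a promoter in the table, 5 (83.3%) held GGGCGG and 3 (50%) held CCAAT, beside 34.9% and 37.7% of all promoters, which were not matched for gene type.

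Slc18a3, the vesicular carrier of acetylcholine, was the one higher gene in which BB replicate 8 also lay above every HE library. Without BB replicate 8, Slc18a3 lost its call when at least 1 further library was left out, and kept it in 7 of 11 other settings. Its values were 49.1, 50.7 and 58.5 in BB, against 27.5, 27.9 and 21.1 in HE, with no overlap (0.95, SE 0.19, limma adjusted p = 0.043, and 1.03 with all libraries). The value of BB replicate 8 rests on 4 reads, since 1 read there is worth 14.6. Acsm2, an acyl-CoA synthetase for medium-chain fatty acids, had 256, 275 and 58.5 in BB, against 190.1, 167 and 149 in HE (0.66, SE 0.13, limma adjusted p = 0.041, and −0.06 with all libraries). Osbpl1a, an oxysterol-binding protein of late endosomes, had 308, 263 and 29.3 in BB, against 193, 165 and 182 in HE (0.66, SE 0.13, limma adjusted p = 0.039, and −0.42 with all libraries). For these 2 genes BB replicate 8 was below the HE range.

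Rplp1, a stalk protein of the ribosome, had 87.2, 82.9 and 14.6 in BB, against 41.0, 34.7 and 53.8 in HE (0.99, SE 0.18, limma adjusted p = 0.020, and 0.17 with all libraries). Its reads followed those of AABR07053837.1 and AABR07032328.1 across the 8 libraries other than BB replicate 8 (r = 0.996 and 0.986), and AABR07053837.1 followed AABR07026997.1 and AABR07070238.1 (r = 0.999 and 0.983). These 4 clone names were called higher as well, and near copies of 1 gene cannot be told apart in these counts. Pairs were compared only where their reads already matched closely in each of the 8 libraries, which favours a high r. Lmnb2 and Rxrb each met the same rule with another gene (r = 0.981 and 0.955). A group of 5 among the 12 higher genes is still not counted as independent, although shared reads were not shown. AABR07031158.1 had the largest log2 fold change of the higher genes, 1.91, with values of 35.8, 64.4 and 0 in BB, against 15.4, 14.4 and 7.80 in HE, and 0.04 with all libraries.

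Names that carry no gene symbol made up 20 of the 59 calls, 14 lower and 6 higher. AABR07014301.3 had the smallest p both with and without BB replicate 8. Its values were 19.5, 14.5 and 14.6 in BB, against 88.7, 77.8 and 132 in HE, with BB replicate 8 at 1 read (−2.46, SE 0.24, limma adjusted p = 0.00011, and −2.52 with all libraries). RF00411.2, named after an RNA family, had 3.11, 3.22 and 0 in BB, against 31.6, 29.6 and 73.4 in HE (−3.33, SE 0.43, limma adjusted p = 0.00095, and −4.02 with all libraries). The BB values of RF00411.2 stand for 4 reads in each of replicates 1 and 4. RGD1565844 had 5.45, 5.64 and 0 in BB, against 38.3, 25.4 and 61.7 in HE (−2.62, SE 0.34, limma adjusted p = 0.00095, and −3.52 with all libraries). With all libraries, the 10 smallest unadjusted p-values included those of AABR07014301.3, RF00411.2, Lrrc23, Ago4 and Itga4, each at a limma adjusted p of 0.524. RGD1565844 was not among these 10. The rest were near the floor, namely RF00560.122, AABR07013931.2, AABR07028183.1, RF00001.109 and RF00001.67, with means of 0 to 0.268 in BB and 2.72 to 4.44 in HE. Their log2 fold changes were −2.02 to −1.57 without BB replicate 8 (limma adjusted p = 0.27 to 0.62) and −2.14 to −1.71 with all libraries (limma adjusted p = 0.524).

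**Figure D4:**
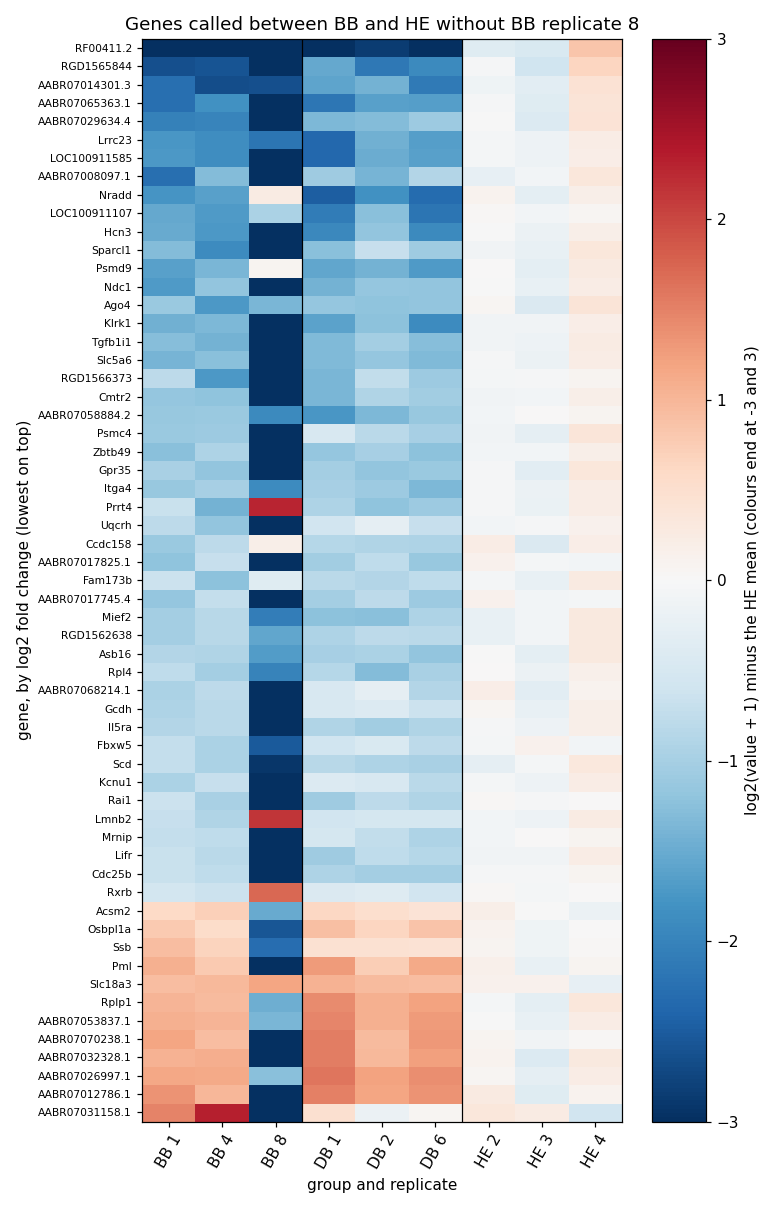
Log2(value + 1) minus the HE mean for the 59 genes called without BB replicate 8 (rows, lowest log2 fold change on top) in each library (columns), with colours ending at −3 and 3. BB replicates 1 and 4 are blue in the 47 lower and red in the 12 higher genes. BB replicate 8 is blue in most of both sets and is clearly red in Prrt4, Lmnb2 and Rxrb of the lower genes and in Slc18a3 of the higher genes.

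The DB libraries show the same genes in diabetic rats without extract, beside the same HE libraries. Nradd had 19.2, 30.8 and 21.7 in DB, Slc5a6 had 89.5, 100.4 and 88.9, Hcn3 had 266, 450.2 and 271, and Klrk1 had 43.8, 57.5 and 35.9. All of these values were under the HE values given above. BB replicates 1 and 4 overlapped DB in Slc5a6, Hcn3 and Klrk1, but both were above every DB library in Nradd. Scd had 65.7, 61.5 and 59.0 in DB, and Pml had 371, 254 and 334. The comparisons of BB and of DB with HE share the HE libraries and are not independent of each other. Between BB and DB, 0 of 32226 genes passed in limma without BB replicate 8 (1594 at an unadjusted p under 0.05, or 4.95%) and 0 of 32146 with all libraries (377, or 1.17%). The edgeR test called 0 genes with all libraries and 1 gene without BB replicate 8, Krt78, a keratin that was not called between BB and HE (0.00368% of 27195 genes, with 1309 or 4.81% at an unadjusted p under 0.05, against 1982 or 7.47% with all libraries). The 59 genes were selected with the same BB replicates 1 and 4, so the 4.95% of all genes is not a base for them. Of the 59 genes, 10 had an unadjusted p under 0.05 between BB and DB without BB replicate 8, 3 of them higher and 7 lower in BB than in DB. The smallest of these p-values was that of AABR07031158.1, with 17.3, 10.5 and 12.7 in DB and a log2 fold change BB minus DB of 1.78 (−0.09 with all libraries). The other higher genes were Nradd with 0.51 and Ssb with 0.34 (1.15 and −0.68 with all libraries). The lower genes were Uqcrh with −0.47, Sparcl1 with −0.59, Gcdh with −0.36, AABR07014301.3 with −0.76, AABR07029634.4 with −0.75, AABR07008097.1 with −0.67 and RGD1565844 with −0.75 (−2.68 to −0.82 with all libraries).

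Lists of genes were then read for the functions of the tissue, without a test of the lists and beside 49.9% of all genes above 0 without BB replicate 8 and 28.7% with all libraries. Of 23 genes of fatty acid synthesis and desaturation, Scd fell and no gene rose, 6 were above 0 and the median log2 fold change was −0.11 (5 above 0 and −0.71 with all libraries). Fads3, a desaturase-like gene, had 400.2, 396 and 102 in BB, against 457, 637 and 552 in HE (−0.45, limma adjusted p = 0.44, and −1.10 with all libraries), and Acacb, the acetyl-CoA carboxylase of mitochondria, had 433, 366 and 117, against 461, 473 and 549 (−0.31, limma adjusted p = 0.67, and −0.89 with all libraries). Neither passed the test, although BB replicates 1 and 4 were below HE in both. None of 26 genes of cholesterol synthesis and uptake passed, with a median of −0.05 (−0.36 with all libraries), and Sc5d, a desaturase of the last steps of the pathway, had the smallest p (−0.42, limma adjusted p = 0.34, and −1.32 with all libraries). Tm7sf2, a sterol reductase of the same pathway, was next and went the other way, with 284, 271 and 73.2 in BB, against 227, 62.6 and 215 in HE (0.93, limma adjusted p = 0.54, and 0.29 with all libraries).

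Fuel genes gave no call. Of 29 genes of fatty acid oxidation and ketone bodies, 14 were above 0 and the median was −0.04 (7 above 0 and −0.52 with all libraries). Of its peroxisomal enzymes, Acaa1a had 0.40 and Ehhadh had −0.27 (−0.16 and −1.01 with all libraries). Among 35 genes of glucose uptake, glycolysis and gluconeogenesis, 14 were above 0 with a median of −0.02 (6 above 0 and −0.44 with all libraries). Slc2a4, which encodes GLUT4, had 154, 139 and 58.5 in BB, against 90.7, 113 and 109 in HE. BB replicates 1 and 4 were above HE and BB replicate 8 was below it (0.49, limma adjusted p = 0.47, and 0.06 with all libraries). Pck1, which in fat feeds the glycerol of triglycerides, had 100.4, 81.3 and 0 in BB, against 53.1, 72.7 and 60.9 in HE (0.54, limma adjusted p = 0.53, and −1.63 with all libraries). Pgam1, a mutase of glycolysis, went the other way (−0.54, limma adjusted p = 0.70, and −2.06 with all libraries). None of the 37 genes of insulin and PI3K signalling passed, with 21 above 0 and a median of 0.01 (17 above 0 and −0.05 with all libraries), and Rras2, a Ras-like GTPase, had the smallest p. It had 249.9, 412 and 2678 in BB, against 439, 492 and 478 in HE, so that BB replicates 1 and 4 were below HE and BB replicate 8 was far above it (−0.55, limma adjusted p = 0.46, and 0.47 with all libraries). Foxo1, a transcription factor held back by insulin, had −0.26 (limma adjusted p = 0.77, and −0.79 with all libraries), and Irs2, an adaptor of the insulin receptor, had 0.36 (limma adjusted p = 0.81, and 0.64 with all libraries).

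In 29 genes of triglyceride synthesis, lipolysis and droplets, 9 were above 0 and the median was −0.08 (9 above 0 and −1.29 with all libraries), with no call. Plin4, a droplet coat protein, had 108, 92.6 and 0 in BB, against 115, 199 and 144 in HE (−0.57, limma adjusted p = 0.75, and −2.79 with all libraries). Dgat2, the last enzyme of triglyceride synthesis, had 274, 248 and 64067 in BB, against 263, 423 and 350 in HE. Replicates 1 and 4 of BB overlapped HE, and the value of BB replicate 8 set the estimate with all libraries (−0.38 without it and 2.27 with it). The summed level of the list was accordingly 2106, 2023 and 103973 in BB, against 2110, 2468 and 2189 in HE.

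Klrk1 was the one call in the immune lists. It fell among 28 natural killer and T cell receptor genes, of which 8 were above 0 with a median of −0.11 (5 above 0 and −1.23 with all libraries). Cd3g, a chain of the T cell receptor complex, had 169, 151 and 0 in BB, against 240, 222 and 272 in HE (−0.61, limma adjusted p = 0.13, and −3.05 with all libraries), and Hcst, the DAP10 adaptor through which NKG2D signals, had 45.2, 54.8 and 14.6, against 63.1, 81.2 and 82.7 (−0.59, limma adjusted p = 0.32, and −1.15 with all libraries). BB was below HE in all libraries for both, but neither passed. Prf1, the pore-forming perforin of the same cells, went the other way, with 70.9, 62.0 and 43.9 in BB, against 45.7, 61.7 and 39.8 in HE (0.45, limma adjusted p = 0.67, and 0.26 with all libraries). BB replicate 1 was above HE in Prf1, and BB replicate 8 was inside the HE range. BB replicate 4 (62.0) was above HE replicate 3 (61.7) by less than 1 read, worth 0.805 and 0.846 in these libraries. Lymphocyte markers summed to 1180, 1143 and 1127 in BB and to 1295 to 1361 in HE, with 1 of 19 called (Klrk1 itself) and 8 of 19 at 0 in BB replicate 8. These sums include Klrk1, which had a mean of 51.5 in BB replicates 1 and 4 and of 137 in HE. They are therefore not separate from its fall. The part of fewer lymphocytes in the value of Klrk1 was not tested. Of 20 macrophage and Kupffer cell markers, 0 passed and 4 were above 0 (median −0.11, or −1.04 with all libraries). They summed to 2551, 2542 and 19112 in BB and to 2842 to 3093 in HE, and Cd68 and Marco had −0.42 and −0.39 (limma adjusted p = 0.58 and 0.52), or −2.21 and −1.10 with all libraries. None of 32 interferon and antigen presentation genes passed (10 above 0, median −0.11, or −0.40 with all libraries). None of 36 inflammatory mediator and NF-kB genes passed (18 above 0, median 0.00, or −0.66 with all libraries), where Nlrp3 of the inflammasome had −0.22 and Ptgs2, the inducible cyclooxygenase, had −0.30 (−1.05 and −0.59 with all libraries). Casp1, the protease of the inflammasome, had 28.8, 25.8 and 0 in BB, against 19.5, 21.1 and 21.9 in HE, with BB replicates 1 and 4 above HE and no read in BB replicate 8 (0.37, limma adjusted p = 0.82, and −1.23 with all libraries).

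The lists around the surface genes held no further call: 1 of 25 vitamin and cofactor transporters (Slc5a6, 11 above 0), 1 of 23 neurotrophin receptors and death domain adaptors (Nradd, 11 above 0) and 1 of 25 pacemaker and potassium channels (Hcn3, 13 above 0), with medians of −0.02, 0.00 and 0.00 (−0.52, −0.13 and −0.09 with all libraries). No gene passed among 25 cytochrome P450 and bile acid genes, where Cyp2e1 had 91.1, 74.1 and 0 in BB, against 47.0, 57.5 and 41.4 in HE (0.76, limma adjusted p = 0.11, and −1.37 with all libraries). Cyp2c23, an epoxygenase of arachidonic acid, had 91.9, 70.9 and 58.5 in BB, against 119.6, 112 and 133 in HE (−0.58, limma adjusted p = 0.25, and −0.74 with all libraries), with no overlap. The 22 clock genes, 26 unfolded protein response genes, 27 antioxidant genes, 37 matrix and junction genes and 19 thermogenic genes had no call and medians between −0.05 and 0.05 without BB replicate 8 (−0.71 to −0.14 with all libraries). Npas2 of the clock had −0.29 and Timp2, an inhibitor of matrix proteases, had −0.44 (limma adjusted p = 0.68 and 0.39), or −3.02 and −1.61 with all libraries. In the same lists Nfil3, a repressor of the clock, had 0.35 and Itga1, a collagen-binding integrin, had 0.36 (limma adjusted p = 0.88 and 0.82), or −1.16 and −0.17 with all libraries. Alb, the plasma protein albumin, had 438, 501 and 14.6 in BB, 263, 251 and 283 in DB, and 486, 738 and 541 in HE (−0.30 for BB against HE, limma adjusted p = 0.75, and −1.94 with all libraries).

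**Figure D5:**
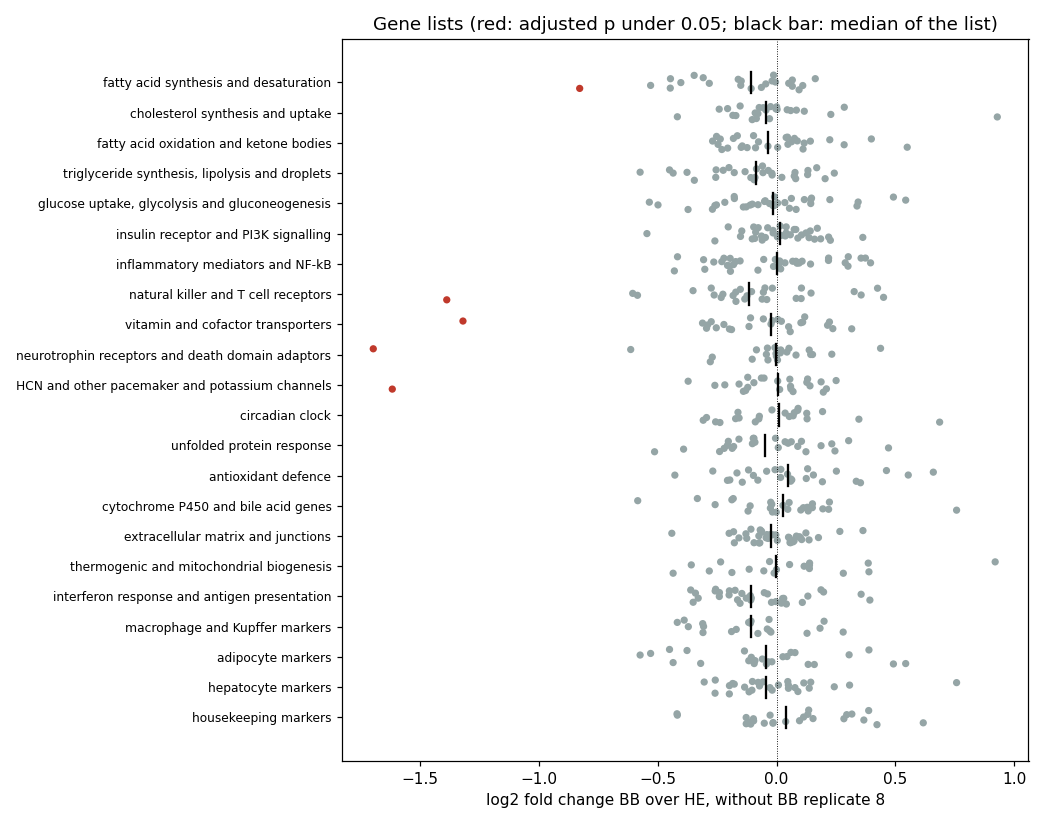
Log2 fold change BB over HE without BB replicate 8 for each gene of 18 functional lists and 4 marker lists (rows), with the list median as a black bar and genes at an adjusted p under 0.05 in red. Every list median lies between −0.11 and 0.05, and red points are Scd, Klrk1, Slc5a6, Nradd and Hcn3.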

How the data were processed

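RNA was extracted from adipose tissue (retroperitoneal, according to the methods of the study), its cDNA was fragmented and ligated to adapters, and the amplified fragments were sequenced, with 3 libraries each of BB, DB and HE. The authors deposited a signal value for every gene in each library, namely its reads over a size factor that is constant within a library. GRCm38 and mm10, both mouse builds, appear in the processing notes of the submitters although the animals are rats. Aligner, counter, annotation and strand setting: not given in the sources used here. Genes that overlap, lie antisense or are near copies can therefore share reads. Column names match the titles by group and replicate number but have another suffix, which no source explains, so the tissue rests on the labels and the study's methods. That libraries of 1 group come from separate rats rests on the numbers in the titles, and p-values cover no more than the variation among these libraries, part of which may be technical.

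Tables were joined on the gene name. They list 32883 genes, of which 32606 had reads, 25 carry a date for a name, 1194 share identical reads in all 9 libraries with some other gene and 18980 (57.7%) matched a RefSeq gene of build GRCr8. Whole reads were recovered by dividing each library by its smallest value above 0, and 100% of values were whole within 0.1 reads. Since the values are normalized, limma 3.58.1 with a trend on log2(value + 1) was the main test (R 4.3.3), fitted to the 3 groups together (6 residual degrees of freedom, or 5 without BB replicate 8), with Benjamini-Hochberg adjustment at 0.05. The pseudocount of 1 understates the change of low genes. Counting tests on recovered reads used edgeR 4.0.16 and DESeq2 1.42.0. Adjusted p-values in the text are limma's unless another tool is named.

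Genes were named by a rule: the 12 largest changes with a gene symbol in each direction among called genes without overlap, the 10 smallest p-values with all libraries, up to 4 genes of each list with the smallest p, and Nradd, Slc5a6, Klrk1, Scd and Hcn3. Others are said to be picked out after their values were seen, and so were Lep, Adipoq, Alb and Krt78. The comparison, its lists and its rules were chosen with earlier results of these data known. Alternatives were other tests, scalings, filters and a pseudocount of 0.1, only the BB and HE libraries, genes with the same reads kept once, and leaving out each library. A weight per library and the filter of at least 1 read were added after seeing the data. The scripts were tested on simulated data. The authors' own comparison values in the supplement were not used. A gene that the naming rule selects is not reported here.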

Additional observations from a re-analysis of the deposited data

How the results depend on the processing

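No paired analysis was possible because BB (1, 4 and 8) and HE (2, 3 and 4) share only the number 4. With all libraries, 0 genes were called under each alternative except DESeq2 (15, all lower), a weight per library (41, of which 33 lower and 8 higher, with a weight of 0.0104 for BB replicate 8) and leaving out single libraries (0 to 59, with 59 reached without BB replicate 8). Without BB replicate 8, the 59 calls became 0 with no filter (2406 genes at an unadjusted p under 0.05), where genes without any read entered the fit, and were again 59 once genes with at least 1 read were required. Leaving out a further library gave 26 to 76 calls, the lowest without HE replicate 4 and the highest without DB replicate 2. The other alternatives gave 45 to 67 calls, and 13 of the 59 genes, all lower, were called under each of them and under each left-out library, apart from no filter. These 13 names include both Lrrc23 and LOC100911585, which count as 1 signal. When an arm was left with 1 library, its spread was taken to be that of the other groups. The median of all genes with all libraries (−0.51) was −0.61 with TMM scaling, −1.73 with total-count scaling and −0.72 with a pseudocount of 0.1, but −0.025 by edgeR, −0.021 by DESeq2, −0.077 by limma-voom, −0.0054 with a weight per library and 0.91 over genes with at least 10 reads in every library, so its sign and size depend on these choices. Below 14.6, or 1 read, BB replicate 8 resolves nothing.

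Signs were followed only for the genes named in the text. For these, no log2 fold change without BB replicate 8 changed sign. With all libraries, 90 values of 24 of these genes did. By edgeR, they were 0.47 for Pml, 0.54 for Ssb, 0.23 for Osbpl1a, 0.29 for Acsm2, 0.35 for Pck1, 0.34 for Casp1, 0.36 for Acaa1a, 0.31 for Nfil3, 0.00053 for Itga1 and 0.61 for Cyp2e1. By DESeq2, they were 0.51 for Pml, 0.59 for Ssb, 0.29 for Osbpl1a, 0.36 for Acsm2, 0.33 for Pck1, 0.29 for Casp1, 0.31 for Acaa1a, 0.27 for Nfil3, 0.020 for Itga1 and 0.57 for Cyp2e1. By limma-voom, Ssb had 0.055, Casp1 0.16, Acaa1a 0.17, Nfil3 0.19, Slc2a4 −0.0096 and Cyp2e1 0.12. With TMM scaling, Slc2a4 had −0.016, Prrt4 −0.0081 and AABR07031158.1 −0.14, and the last had −0.98 with a pseudocount of 0.1. With total-count scaling, Rplp1 had −1.36, Prf1 −1.54, Rras2 −1.57, Irs2 −1.37, Tm7sf2 −1.59, Slc18a3 −0.81, Slc2a4 −1.79, Prrt4 −1.96, Lmnb2 −1.83, Rxrb −1.86, AABR07031158.1 −0.32, AABR07053837.1 −1.29 and AABR07026997.1 −1.18. With a weight per library, Pml had 0.91, Ssb 0.78, Casp1 0.36, Rras2 −0.55, Acaa1a 0.39, Nfil3 0.33, Itga1 0.37, Osbpl1a 0.65, Acsm2 0.65, Pck1 0.54, Cyp2e1 0.77, Prrt4 −1.03, Lmnb2 −0.80, Rxrb −0.60 and Dgat2 −0.33. Leaving out single libraries gave −1.25 to 0.93 for Pml, −2.08 to 0.37 for Casp1, −0.55 to 1.16 for Rras2, −0.31 to 0.93 for Tm7sf2, −0.46 to 0.40 for Acaa1a, −2.00 to 0.35 for Nfil3, −0.50 to 0.36 for Itga1, −0.81 to 0.79 for Ssb, −1.01 to 0.66 for Osbpl1a, −0.45 to 0.66 for Acsm2, −2.79 to 0.54 for Pck1, −2.51 to 0.76 for Cyp2e1, −0.20 to 0.49 for Slc2a4, −1.04 to 0.81 for Prrt4, −1.11 to 1.91 for AABR07031158.1, −0.26 to 0.99 for Rplp1, −0.80 to 0.72 for Lmnb2, −0.60 to 0.58 for Rxrb, −0.18 to 1.05 for AABR07053837.1, −0.055 to 1.15 for AABR07026997.1 and −0.38 to 3.63 for Dgat2. In each gene the value at one end is the one without BB replicate 8. The cause was not tested.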
